A study of Mus musculus with 16 samples.

Results

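Matrix metalloproteinases are the zinc enzymes that cut collagen and the other proteins of the extracellular matrix, and TIMPs are the secreted proteins that block them. The 10 genes described here are 8 metalloproteinases, Mmp2, Mmp3, Mmp8, Mmp9, Mmp10, Mmp12, Mmp13 and Mmp14, and the inhibitors Timp1 and Timp3. They were chosen by gene symbol, and 15 of the 56605 probes on the array carry one of these symbols, out of 37008 gene names. Mmp12 and Timp3 have 3 probes each, Mmp9 has 2 and every other member has 1.

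RNA came from orthotopic pancreatic tumours of female C57BL/6 mice that were given ADH-503, an agonist of the integrin CD11b, or vehicle. The 16 samples were 6 of vehicle, 5 at 48 h of ADH-503 and 5 at 10 days, with 1 array each. The sample titles call the compound LA1, and the vehicle samples carry no time, so the same 6 arrays were the control for both times. The labels name no tumour line, mutation or age, and leave unsaid whether the samples are separate animals, so p-values here cover only the spread between these samples, which may be technical. The comparisons set gene expression in tumours given the compound against that in vehicle tumours. Because the vehicle samples carry no time, effects of the compound and of time cannot be fully told apart.

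Metalloproteinases are made as inactive zymogens, and their cutting is limited by when the gene is on, when the propeptide is removed and how much TIMP is near. In pancreatic tumours the collagen-rich stroma is built and remodelled by fibroblasts, while neutrophils store Mmp8 and Mmp9 in granules and macrophages secrete Mmp12. Many metalloproteinase genes are switched on by inflammatory cytokines through the transcription factor AP-1.

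Between 74.9% and 81.2% of the probes on an array were well above background and no probe was saturated. All 8 ductal and tumour epithelium markers and all 9 acinar markers were well above background on every array, so the labelled tissue had its markers. The arrays lay on 2 slides: slide 1 carried 4 of the 48 h arrays, 3 from 10 days and 1 vehicle array, and slide 2 carried 5 vehicle arrays, 2 from 10 days and 1 from 48 h. Group and slide thus overlap in large part, and their effects cannot be fully told apart. The title of vehicle replicate 2 has the same ID number as that of 48 h replicate 5; both were kept, and results were also computed without them. The array of 48 h replicate 4 stood apart: it was the lowest of the 16 for Mmp2, Mmp12, Mmp13, Mmp14 and Timp3 and the highest for Timp1. This was not particular to these genes. Its mean log2 levels of the ductal and tumour epithelium markers, -1.61, and of the endothelial markers, -3.58, were also the lowest of the 16. In bulk tumour RNA, fewer cells of a type and less RNA per cell cannot be told apart.

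Neither time of ADH-503 moved a member past the test. None of the 9 members tested had an adjusted p under 0.05 in limma's moderated test in any of the 3 comparisons, where 0% of the 30582 genes tested passed in each. At an unadjusted p under 0.05, 1 member, Timp1, was reached at 10 days against vehicle (3.54% of all genes), and none was reached at 48 h against vehicle (2.56% of all genes) or at 10 days against 48 h (3.47% of all genes). No member had groups that did not overlap, where 0.141% of all genes at 48 h against vehicle, 0.213% at 10 days against vehicle and 0.5% at 10 days against 48 h had such groups. Mmp10 was not tested, because it was well above background on 1 of the 16 arrays.

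The mean of every tested member lay below the vehicle mean at 10 days, 9 of 9, where 52% of all genes did. The median log2 fold change of the 9 members was -0.17 at 10 days against vehicle, with a range of -0.69 to -0.03, and the median over all genes was -0.01. At 48 h 6 of 9 lay below vehicle, where 53.2% of all genes did, with a member median of -0.01 and a range of -0.34 to 0.14. From 48 h to 10 days 8 of 9 had a lower mean, where 48.9% of all genes did, and the member median was -0.12. These comparisons share samples, and none of the 9 differences at 10 days passed the test after adjustment. The 9 of 9 did not hold under every setting. Mmp2 was 0.012 at 10 days with slide as a block, and Timp3 was 0.30 without 10-day replicate 5. Among members 27 of 36 pairs had a positive r, a share not computed for other genes, so the 9 signs cannot be taken as independent.

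**Figure D1:**
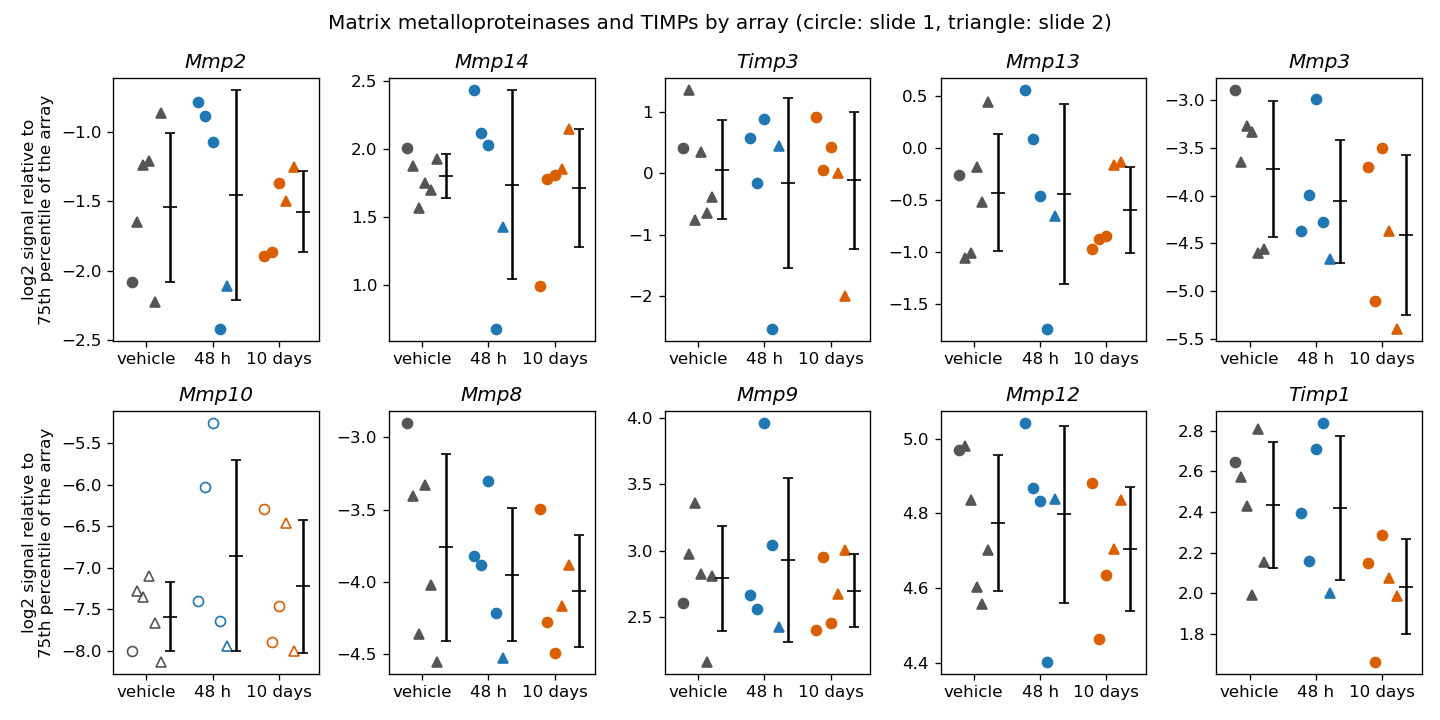
Relative log2 signal of each of the 10 members (vertical axis, log2 signal minus the array's 75th percentile) on 16 arrays (vehicle n = 6, 48 h n = 5, 10 days n = 5); circles are slide 1, triangles slide 2, bars are the mean ± SD, and open symbols mark Mmp10, which was not tested. The groups overlap in every panel, and the lowest point for Mmp2, Mmp12, Mmp13, Mmp14 and Timp3 is the same 48 h array, replicate 4.

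Of the members, Timp1 came closest to a difference between groups. It is the soluble, inducible inhibitor that binds most of the secreted metalloproteinases, and its probe lies at chrX:20451675-20451733 (mm9, as all probe positions). Relative to the 75th percentile of each array, its log2 signal in vehicle ran from 1.99 through a median of 2.50 to 2.81. At 48 h the 5 arrays had 2.40, 2.16, 2.71, 2.84 and 2.002, and at 10 days 2.15, 1.66, 2.29, 2.07 and 1.99. The 48 h arrays spanned the same levels as vehicle, while the 10-day arrays all lay below the vehicle median with 3 of the 5 inside the vehicle range and 2 under it, 1 of these only barely.

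The Timp1 means were 2.43 ± 0.31 in vehicle (SD, n = 6), 2.42 ± 0.35 at 48 h (SD, n = 5) and 2.03 ± 0.23 at 10 days (SD, n = 5). The fitted difference at 10 days against vehicle was -0.40 ± 0.18 (SE), a fold of 0.757 with a 95% interval of 0.578 to 0.991. Its unadjusted p in limma was 0.0435 and its adjusted p 0.99998, so it was not called. Against 48 h the difference was -0.39 ± 0.19 (SE), with an unadjusted limma p of 0.0590, and at 48 h against vehicle it was -0.01 ± 0.18 (SE). The step from 48 h to 10 days, 0.389, was the only gap between neighbouring group means of any member that was larger than the pooled SD within groups, 0.303 for Timp1. Groups accounted for 31.1% of the variance of Timp1 over the 16 arrays, 15.8% of that of Mmp3, and at most 6.73% for the other 7 members tested. A split into 3 groups takes up some of the variance of any gene even with no group effect. The share over all genes was not computed, so these shares are no sign of a group effect by themselves.

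Within slide 1 the Timp1 difference of 10 days from vehicle was -0.61, and within slide 2 it was -0.36; the first rests on 1 vehicle array. With slide as a block it was -0.50 ± 0.19 (SE), with an unadjusted limma p of 0.0220. Within slide 2 the difference of 10 days from 48 h was 0.03, against 1 array at 48 h, and within slide 1 it was -0.49. Over the 26 settings tried, the 10-day difference from vehicle ran from -0.50 to -0.31 and its unadjusted limma p from 0.0159 to 0.123, with 16 of 26 under 0.05. Without 10-day replicate 2, the lowest of the 16 arrays for Timp1, it was -0.31, with an unadjusted limma p of 0.123.

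Timp3 is the inhibitor that stays bound to the extracellular matrix and also blocks ADAM sheddases, and the probe used lies at chr10:85812041-85812100. Its log2 signal in vehicle ran from -0.75 through a median of -0.02 to 1.36. The 48 h arrays had 0.58, -0.16, 0.89, -2.53 and 0.44, and at 10 days 0.92, 0.05, 0.43, 0.01 and -1.99. One array in each treated group lay more than a log2 unit below all vehicle arrays, and the other treated arrays lay within the vehicle range.

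The fitted Timp3 difference was -0.21 ± 0.63 (SE) at 48 h and -0.17 ± 0.63 (SE) at 10 days, each against vehicle, with 95% intervals of -1.55 to 1.12 and -1.51 to 1.16. Timp3 was the most variable member, 14.8-fold from its lowest to its highest array, and its SD within groups lay at the 93.5th percentile of all genes tested. Without 48 h replicate 4 its difference at 48 h was 0.38 in place of -0.21. Of the other Timp3 probes, 1 followed the probe used, with r = 0.86 over the 16 arrays, and the one designed on another transcript did not, with r = 0.10. Among the other inhibitors, Timp2, which also helps activate pro-Mmp2, had a difference of 0.02 ± 0.12 (SE) at 10 days against vehicle, Timp4 had 0.15 ± 0.14 (SE), and Reck, a membrane-anchored inhibitor, had -0.00 ± 0.26 (SE).

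**Figure D2:**
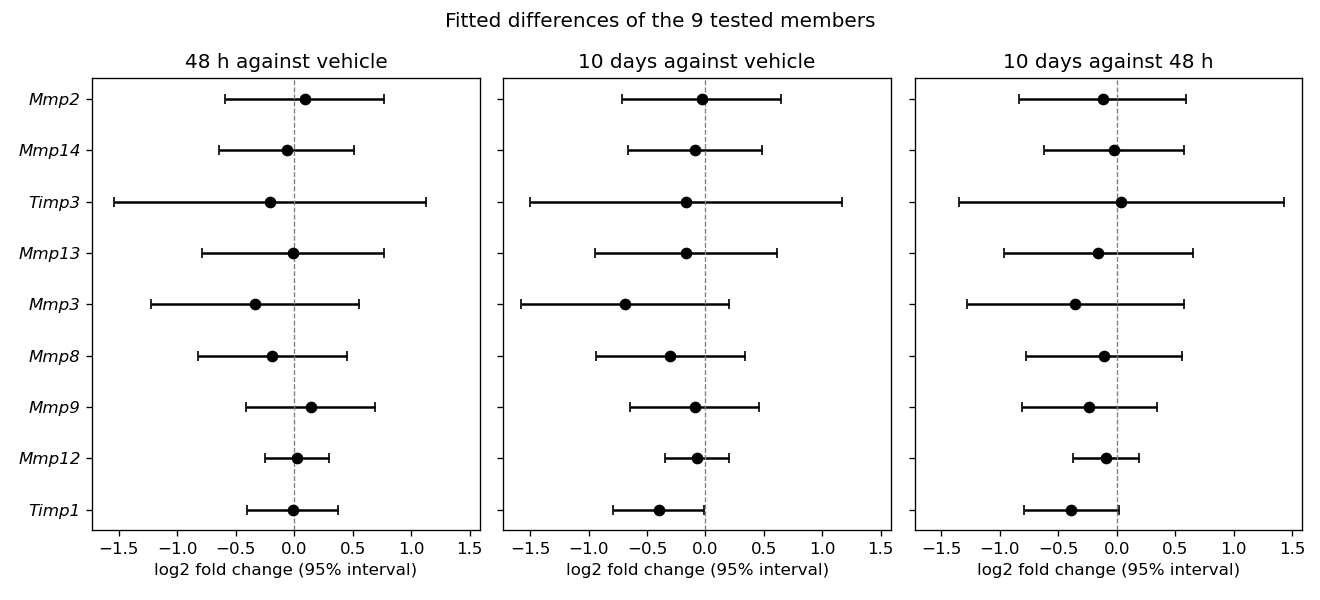
Fitted log2 fold changes of the 9 tested members (points) with their 95% intervals (bars) in the 3 comparisons; the dashed line marks no difference. The interval excludes 0 for 1 member in 1 comparison, Timp1 at 10 days against vehicle (-0.79 to -0.01), before any adjustment.

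The stromelysins Mmp3 and Mmp10 cut proteoglycans and fibronectin and activate other pro-metalloproteinases. Mmp3, read at chr9:7455751-7455810, had the largest fitted difference of the 9 members tested. Its log2 signal in vehicle ran from -4.60 through a median of -3.50 to -2.90. The signals at 48 h were -4.37, -4.00, -2.99, -4.28 and -4.66, and at 10 days -3.70, -5.10, -3.50, -4.37 and -5.39. Of the 10-day arrays 2 lay below every vehicle array, while the other 3 lay within the vehicle range.

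Mmp3 at 10 days differed from vehicle by -0.69 ± 0.42 (SE), a fold of 0.620 with a 95% interval of 0.335 to 1.15 and an unadjusted limma p of 0.119. At 48 h the difference was -0.34 ± 0.42 (SE). With slide as a block the differences were -1.05 ± 0.40 (SE) at 10 days, with an unadjusted limma p of 0.0197 and an adjusted p of 0.99997, and -0.86 ± 0.43 (SE) at 48 h, with an unadjusted limma p of 0.0658. Within slide 1 the 10-day difference was -1.20, against 1 vehicle array, and within slide 2 it was -0.99. Other settings gave smaller differences at 10 days: -0.45 without 10-day replicate 5, with an unadjusted limma p of 0.307, and -0.41 with normexp and quantile normalization, with an unadjusted limma p of 0.112. Vehicle replicate 1, the only vehicle array on slide 1, was the highest of the 16 arrays for Mmp3.

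Mmp10, read at chr9:7510011-7510070, was at the limit of the array. Its log2 signal in vehicle ran from -8.13 through a median of -7.51 to -7.10. The 5 arrays of 48 h read -7.40, -6.02, -5.26, -7.64 and -7.94, and at 10 days -6.29, -7.90, -7.46, -6.46 and -8.00. The array at -5.26, 48 h replicate 3, was the only one of the 16 on which the probe was well above background. No difference is given for Mmp10, because in every group its probe was well above background on at most 1 array.

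Mmp13 and Mmp8 are collagenases, which cut the triple helix of fibrillar collagen. Mmp13, collagenase 3, is made mainly by mesenchymal cells and was read at chr9:7282762-7282821. Its log2 signal in vehicle ran from -1.06 through a median of -0.40 to 0.44. Samples at 48 h gave 0.55, 0.09, -0.46, -1.74 and -0.66, and at 10 days -0.97, -0.87, -0.85, -0.16 and -0.14. The 48 h arrays held both the highest and the lowest value of the 16, and all 10-day arrays lay within the vehicle range. The differences from vehicle were -0.01 ± 0.36 (SE) at 48 h and -0.17 ± 0.36 (SE) at 10 days. Without 48 h replicate 4 the 48 h difference was 0.31, with an unadjusted limma p of 0.334.

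Mmp8, the neutrophil collagenase, read at chr9:7567968-7568026, had a log2 signal in vehicle from -4.55 through a median of -3.71 to -2.90. The 48 h arrays had -3.82, -3.88, -3.30, -4.21 and -4.53, and at 10 days -3.49, -4.28, -4.49, -4.16 and -3.88. Every treated array lay within the vehicle range. The differences from vehicle were -0.19 ± 0.30 (SE) at 48 h and -0.30 ± 0.30 (SE) at 10 days. At 10 days the difference was -1.18 within slide 1 and -0.09 within slide 2. With slide as a block it was -0.51 ± 0.31 (SE), with an unadjusted limma p of 0.119.

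The genes of Mmp3, Mmp8, Mmp10, Mmp12 and Mmp13 are neighbours in the metalloproteinase cluster of mouse chromosome 9. The set of RefSeq promoters used here (GRCm38.p6) held 8 of the 10 members and had no entry for Mmp2 or Mmp9. The AP-1 sequence TGAGTCA, read on both strands in the 250 bases before a start, was present for Mmp3, Mmp10, Mmp13 and 1 of the 2 starts of Mmp12, against 4.46% of 32851 mouse promoters. For Mmp12 that was the start inside the gene, and the start at the gene's first base had no such motif. The motif was not found in that window for Mmp8, Mmp14, Timp1 or Timp3. The 120 bases before the start are shown for 4 members of the cluster, because they share this motif, and for Mmp14, whose level followed that of Mmp13 without sharing it. All 5 lie on the plus strand and capitals mark AP-1 on either strand; the positions, in the order printed, are chr9:7445702-7445821, chr9:7502222-7502341, chr9:7347254-7347373, chr9:7272394-7272513 and chr14:54431478-54431597.
Mmp3: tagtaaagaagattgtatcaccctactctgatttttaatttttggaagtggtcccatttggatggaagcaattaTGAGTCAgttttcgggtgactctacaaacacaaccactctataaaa
Mmp10: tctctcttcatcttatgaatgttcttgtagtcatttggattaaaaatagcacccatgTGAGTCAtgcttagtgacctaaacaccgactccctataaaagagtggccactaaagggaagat
Mmp12: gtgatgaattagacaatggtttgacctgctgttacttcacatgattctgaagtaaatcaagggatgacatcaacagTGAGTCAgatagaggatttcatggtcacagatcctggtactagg
Mmp13: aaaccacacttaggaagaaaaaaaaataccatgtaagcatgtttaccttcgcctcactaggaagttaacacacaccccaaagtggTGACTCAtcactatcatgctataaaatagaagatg
Mmp14: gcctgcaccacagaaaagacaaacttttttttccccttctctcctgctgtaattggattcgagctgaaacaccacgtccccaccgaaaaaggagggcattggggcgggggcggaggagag

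The motif starts 46 bases before the start of Mmp3 and 63 before that of Mmp10. It starts 44 before the inner start of Mmp12 and 35 before the start of Mmp13, where it reads TGACTCA. Mmp3, Mmp10 and Mmp13 also have TATAAA on the sense strand of the window, which 7.59% of promoters have. The tested members with the motif were Mmp3, Mmp13 and, at its inner start only, Mmp12. Among these r over the 16 arrays was -0.16 for Mmp3 and Mmp13, 0.31 for Mmp3 and Mmp12 and 0.41 for Mmp12 and Mmp13. None passed the adjusted test. A list of inducers was also read, which holds cytokines, receptors and AP-1 subunits but also Ets1 and Ets2, so it is not an AP-1 list. Il1b, a cytokine that induces stromelysins and collagenases, had a difference of -0.26 ± 0.14 (SE) at 10 days against vehicle. Il6 had -0.21 ± 0.32 (SE), and Fosl1, an AP-1 subunit, had -0.62 ± 0.60 (SE). Over that list 13 of 15 genes tested had a lower mean at 10 days than in vehicle, where 52% of all genes did, and none passed the test.

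The gelatinases Mmp2 and Mmp9 cut denatured collagen and basement membrane collagen. Mmp2 is made by fibroblasts and activated at the cell surface by Mmp14, and its probe lies at chr8:95376840-95376899. Its log2 signal in vehicle ran from -2.22 through a median of -1.44 to -0.87. The signals at 48 h were -0.79, -0.89, -1.07, -2.42 and -2.11, and at 10 days -1.89, -1.86, -1.37, -1.50 and -1.25. The 48 h arrays split into 3 high and 2 low ones, reaching past both ends of the vehicle range. The differences from vehicle were 0.09 ± 0.32 (SE) at 48 h and -0.03 ± 0.32 (SE) at 10 days, and within the slides the 48 h difference was 0.79 and -0.68.

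Mmp9, the gelatinase of neutrophils and macrophages, had a log2 signal in vehicle from 2.17 through a median of 2.82 to 3.36. The 5 arrays of 48 h read 2.67, 2.56, 3.96, 3.04 and 2.43, and at 10 days 2.41, 2.95, 2.46, 2.67 and 3.01. One 48 h array, replicate 3, lay above all others, and all other treated arrays lay within the vehicle range. The differences from vehicle were 0.14 ± 0.26 (SE) at 48 h and -0.09 ± 0.26 (SE) at 10 days. Without 48 h replicate 3 the 48 h difference was -0.12, with an unadjusted limma p of 0.584.

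The probe used for Mmp9 spans 1210 bases of the genome (chr2:164779091-164780300, mm9) with 60 bases of sequence, so it crosses an exon junction and reads spliced RNA. A probe of Mmp12 likewise spans 516 bases (chr9:7354810-7355325, mm9). Both are shown as the authors' files give them.
Mmp9: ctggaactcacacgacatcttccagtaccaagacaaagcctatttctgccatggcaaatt
Mmp12: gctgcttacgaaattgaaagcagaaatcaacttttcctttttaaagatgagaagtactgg
Each followed its gene's other probe or probes: the Mmp9 pair correlated with r = 0.94 over the 16 arrays, and the junction probe of Mmp12 correlated with the probe used with r = 0.82. The third Mmp12 probe correlated with the probe used with r = 0.68.

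Mmp12, the macrophage elastase, read at chr9:7352935-7352994, was the least variable member, 1.56-fold from its lowest to its highest array. Its log2 signal in vehicle ran from 4.56 through a median of 4.77 to 4.98. Samples at 48 h gave 5.04, 4.87, 4.83, 4.404 and 4.84, and at 10 days 4.88, 4.46, 4.64, 4.71 and 4.84. All treated arrays but 3 lay within the vehicle range, 1 above it and 2 below it. The differences from vehicle were 0.02 ± 0.13 (SE) at 48 h and -0.07 ± 0.13 (SE) at 10 days. The 95% intervals were the narrowest of the 9 members, a fold of 0.841 to 1.23 at 48 h and of 0.788 to 1.15 at 10 days.

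Mmp14, the membrane-bound metalloproteinase that activates pro-Mmp2 and pro-Mmp13, was read at chr14:55058775-55058834. It had a log2 signal in vehicle from 1.56 through a median of 1.81 to 2.01. The 48 h arrays had 2.43, 2.12, 2.03, 0.68 and 1.43, and at 10 days 0.99, 1.78, 1.81, 1.85 and 2.15. The vehicle arrays lay close together, with an SD of 0.163, against 0.696 at 48 h and 0.433 at 10 days. Single arrays weighed in the latter 2, 48 h replicate 4 at 0.68 and 10-day replicate 1 at 0.99. Slide 2 held 5 of the vehicle arrays, and the spreads were not tested between groups. The differences from vehicle were -0.07 ± 0.27 (SE) at 48 h and -0.09 ± 0.27 (SE) at 10 days. Without 48 h replicate 4 the 48 h difference was 0.20, with an unadjusted limma p of 0.373. The median of the 9 members at 48 h was then 0.12 in place of -0.01.

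Members were also compared with each other over the 16 arrays, which share the groups, the slides and the cell content of the tumours. Of 36 pairs 27 had a positive r, with a median of 0.20. How often pairs of other genes have a positive r was not computed. Pearson's r passed after Benjamini-Hochberg adjustment over the 36 pairs for 3 of them, the pairs among Mmp2, Mmp13 and Mmp14. Mmp13 and Mmp14 had r = 0.79 (permutation p = 0.00018, adjusted 0.00648) and Spearman's rho = 0.74 (permutation p = 0.00161, adjusted 0.058). Mmp2 and Mmp14 had r = 0.69 (permutation p = 0.00156, adjusted 0.0281) and rho = 0.68 (permutation p = 0.00514, adjusted 0.0784). Mmp2 and Mmp13 had r = 0.70 (permutation p = 0.00265, adjusted 0.0318) and rho = 0.66 (permutation p = 0.00653, adjusted 0.0784).

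The 3 calls depended on the arrays and values used. Without the 2 arrays farthest from the median of the first gene, r was 0.57 for Mmp13 and Mmp14, 0.60 for Mmp2 and Mmp14 and 0.63 for Mmp2 and Mmp13, none past the adjusted test. Without 48 h replicate 4 the values were 0.68, 0.58 and 0.60, again none past it. In the authors' deposited table the same pairs passed, with r of 0.80, 0.72 and 0.71 and adjusted permutation p of 0.00324, 0.0103 and 0.0221. On slide 1 alone the same pairs had r of 0.90, 0.78 and 0.80, and on slide 2 alone 0.50, 0.52 and 0.51. Timp1 had a negative r with each of the 3, -0.28 with Mmp13, -0.26 with Mmp2 and -0.16 with Mmp14, none past the test.

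**Figure D3:**
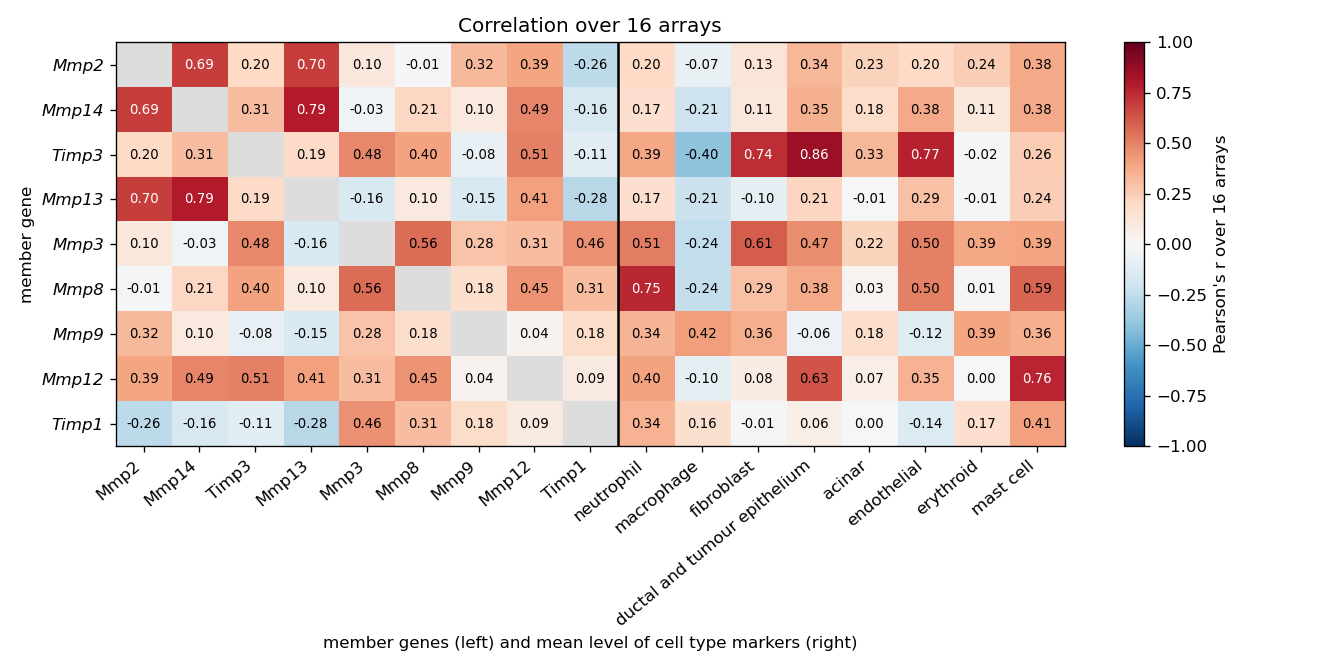
Pearson's r over the 16 arrays between the 9 tested members (rows) and the members (left columns) or the mean level of each of 8 cell type marker lists (right columns); red is positive and blue negative. Mmp2, Mmp13 and Mmp14 form a block of r from 0.69 to 0.79, and Timp3 with the ductal and tumour epithelium markers has the highest value, 0.86.

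The members were then set against the mean log2 level of 8 cell type marker lists, none of which holds a member. Of 72 pairs of a member and a list, 5 passed by r after adjustment over the 72, and 3 of these by rho too. Mmp8 followed the neutrophil markers, with r = 0.75 (permutation p = 0.00089, adjusted 0.0135) and rho = 0.77 (permutation p = 0.00097, adjusted 0.0233). It did so within slide 1, r = 0.85, and within slide 2, r = 0.81, and had r = 0.79 without the 2 farthest arrays and 0.74 without 48 h replicate 4. In the authors' deposited table r was 0.64, with an adjusted permutation p of 0.101, so the call was lost there. No pair of a member and a list passed the adjusted test within a slide of 8 arrays. Mmp9, which neutrophils also store, had r = 0.34 with these markers and 0.42 with the macrophage markers, neither past the test.

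Mmp12 followed the mast cell markers, with r = 0.76 (permutation p = 0.00055, adjusted 0.0135) and rho = 0.77 (permutation p = 0.00061, adjusted 0.022). Its r was 0.79 within slide 1, 0.76 within slide 2, 0.83 without the 2 farthest arrays and 0.85 without 48 h replicate 4. In the authors' deposited table it was 0.66, with an adjusted permutation p of 0.0792, so this call was lost there too. With the macrophage markers, the cells it is named for, its r was -0.10. The macrophage level was itself narrow, from 3.34 to 3.72 over the 16 arrays.

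Timp3 followed the ductal and tumour epithelium markers, with r = 0.86 (permutation p = 1e-05, the smallest the permutations can give, adjusted 0.00072) and rho = 0.88 (permutation p = 5e-05, adjusted 0.0036). Its r was 0.85 within each slide and 0.80 without 48 h replicate 4. Without the 2 farthest arrays r was 0.73, with an adjusted permutation p of 0.0652, and in the authors' deposited table it was 0.85, with an adjusted permutation p of 0.00072. Timp3 also passed by r with the endothelial markers, 0.77, and with the fibroblast markers, 0.74, but not by rho after adjustment. Mmp2, which fibroblasts make, had r = 0.13 with the fibroblast markers.

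**Figure D4:**
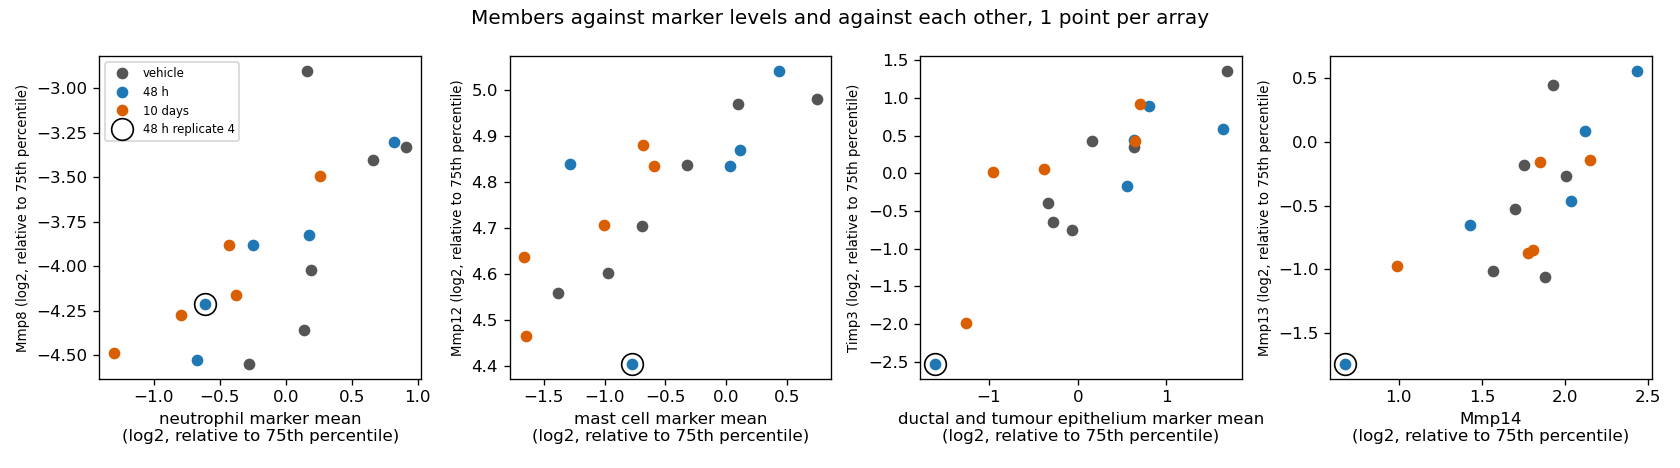
Each point is 1 of the 16 arrays, coloured by group, with 48 h replicate 4 ringed: Mmp8 against the neutrophil marker mean, Mmp12 against the mast cell marker mean, Timp3 against the ductal and tumour epithelium marker mean, and Mmp13 against Mmp14 (all axes in log2 relative to the array's 75th percentile). The ringed array is the lowest point for Mmp12, Timp3, Mmp13 and Mmp14, and Mmp8 is higher where the neutrophil markers are higher (r = 0.75).

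In some of these marker lists all or nearly all genes had a mean on the same side of vehicle, but no marker passed the adjusted test, the levels of the lists were not tested between groups, and those given here overlapped between vehicle and each time. All 10 neutrophil markers had a lower mean at 10 days than in vehicle, with log2 fold changes from -2.001 to -0.01, and their mean level ran from -0.28 to 0.91 in vehicle, from -0.68 to 0.82 at 48 h and from -1.30 to 0.26 at 10 days. All 8 ductal and tumour epithelium markers were lower in mean at 10 days, with levels from -0.34 to 1.68 in vehicle, from -1.61 to 1.64 at 48 h and from -1.26 to 0.70 at 10 days. All 5 mast cell markers were also lower in mean at 10 days, with levels from -1.38 to 0.74 in vehicle, from -1.28 to 0.43 at 48 h and from -1.66 to -0.59 at 10 days. Of the macrophage markers 9 of 10 were higher in mean at 10 days, with levels from 3.34 to 3.62 in vehicle, from 3.55 to 3.72 at 48 h and from 3.53 to 3.66 at 10 days. Of the other lists, 8 of 9 acinar markers had a higher mean at 48 h than in vehicle and 8 of 9 had a lower mean at 10 days than at 48 h, with levels from 0.44 to 2.13 in vehicle, from 1.90 to 2.57 at 48 h and from 0.12 to 2.54 at 10 days. All 6 endothelial markers were lower in mean at both times than in vehicle, with levels from -2.77 to -1.81 in vehicle, from -3.58 to -2.62 at 48 h and from -3.24 to -2.36 at 10 days. All 5 erythroid markers were too, with levels from -3.05 to 0.88, from -3.85 to -1.47 and from -3.90 to -2.38. Of the 9 fibroblast markers tested 4 were lower in mean at 48 h and 5 at 10 days, with levels from -1.43 to -0.80 in vehicle, from -1.68 to -0.32 at 48 h and from -1.88 to -0.69 at 10 days. At an unadjusted limma p under 0.05, the markers reached at 48 h against vehicle (2.56% of all genes) were 5 acinar and 1 macrophage marker on the higher side and 3 erythroid, 1 neutrophil, 1 fibroblast and 1 endothelial marker on the lower side. At 10 days against vehicle (3.54% of all genes) they were 3 neutrophil, 3 erythroid and 1 mast cell marker, and at 10 days against 48 h (3.47% of all genes) 8 acinar, 2 mast cell and 1 neutrophil marker, all on the lower side. Every marker of the neutrophil, mast cell, epithelial and macrophage lists was well above background on every array. Of all genes, 53.2% had a lower mean at 48 h than in vehicle and 52% at 10 days than in vehicle. From 48 h to 10 days 48.9% had a lower mean. The part of these marker levels in the member differences was not tested.

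The genes most alike to each member, by Pearson's r over the 16 arrays and out of all genes tested, are a description with no test. Timp3 had the closest neighbours, Parva with r = 0.97, Rbp4 with 0.96 and Me1 with 0.94. Spty2d1 was the nearest gene to both Mmp14, r = 0.89, and Mmp13, r = 0.87, followed by Ccdc71l and Alas1 for Mmp14 and by Bcl2a1c and Slc30a9 for Mmp13. Entpd1, Acsl3 and Cd276 were nearest to Mmp2, from 0.80 to 0.85, and Jph1, Acpp and Stk35 to Mmp3, from 0.80 to 0.81. Mmp12 had Siglecf, a sialic acid receptor of eosinophils, at r = 0.86 and Gsto1 at 0.83, and Mmp8 had Prl2c5 at 0.83 and Crisp3, a neutrophil granule protein, at 0.82. Mmp9 had Ccpg1 at 0.82 and Wbp2 at 0.81. For each of Mmp8, Mmp9 and Mmp12 the single nearest probe is named in the files only by a genomic region. Olfr488, Gm16404 and Gm10487 were nearest to Timp1, from 0.82 to 0.84.

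No gene of the wider pathway passed either. Of the other 15 metalloproteinase genes 12 were tested and none passed in any comparison. Mmp7, the matrilysin of ductal epithelium, had differences of 1.73 ± 1.39 (SE) at 48 h and 0.18 ± 1.39 (SE) at 10 days, and was well above background on 3 of 6 vehicle, 4 of 5 at 48 h and 3 of 5 arrays at 10 days. Mmp11 had a 10-day difference of -0.21 ± 0.33 (SE), Mmp19 of -0.30 ± 0.26 (SE), Mmp23 of 0.07 ± 0.38 (SE) and Mmp28 of -0.05 ± 0.14 (SE).

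Of 7 plasminogen system genes, whose product plasmin activates pro-metalloproteinases, 5 had a lower mean at 10 days than in vehicle and none passed. Of all genes tested, 52% had a lower mean in this comparison. Plaur, the urokinase receptor, had -0.43 ± 0.21 (SE), with an unadjusted limma p of 0.0580, and Plau, urokinase, had -0.05 ± 0.20 (SE). Of the 12 matrix substrates 11 had a lower mean at 10 days. Of these, 1 had an unadjusted limma p under 0.05 (3.54% of all genes), and none passed after adjustment. Col1a1, the main fibrillar collagen chain, had -0.18 ± 0.58 (SE), Col4a1 of the basement membrane had -0.12 ± 0.59 (SE), and Spp1, osteopontin, had -0.03 ± 0.15 (SE). Of the 13 tested ADAM and ADAMTS genes 6 had a higher and 7 a lower mean at 10 days, and of the 9 genes of activation and clearance 6 had a higher and 3 a lower mean. Among these Bsg, the inducer of metalloproteinases on the tumour cell surface, had -0.18 ± 0.13 (SE), Lrp1, which clears enzyme and inhibitor complexes, had 0.05 ± 0.15 (SE), and Ctsk, a collagen-cutting cathepsin, had 0.16 ± 0.67 (SE).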

How the data were processed

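RNA of 16 tumour samples was measured on 1-colour Agilent mouse arrays. Per the submitters' processing notes, spots were read with Agilent Feature Extraction 11.5.1.1. The processed signal is an intensity in the red (Cy5) channel after background subtraction, and probe positions are on mm9, per the file headers. The authors also made a log2 table, whose 16 sorted columns differ by at most 0.0043, so it is quantile-normalized; it served as an alternative.

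From the intensities, log2 was taken, outlier and control spots were left out, replicate spots were averaged, and values were set relative to the 75th percentile of their array. A gene is its brightest probe, tested if well above background on at least 5 arrays. Names came from accessions (32989 probes) or symbols and synonyms (10747), and 12869 kept the file's name. limma 3.58.1 (R 4.3.3) fitted the 3 groups in 1 model with robust eBayes and Benjamini-Hochberg adjustment over all 30582 genes, threshold 0.05. No design or test of the authors is given in the sources used here. Correlations used 100000 permutations, 2-sided (40320, exact, within a slide). Alternatives were slide as a block, other scaling and background correction, other filters and probe rules, and leaving out arrays. Scripts were tested on simulated data.

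The members, 7 pathway lists, 8 marker lists and all tests were chosen with earlier results of these data known. Genes named are the members, 19 set pathway genes (another is not reported here) and the 3 most alike to each member. The number of arrays limits the precision.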

Additional observations from a re-analysis of the deposited data

Results flagged for a closer look

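Of 84 groups of samples examined over the named genes, 3 had an array set apart from the others of its group by Dixon's test, where chance gives about 1 in 20. Col4a1, a basement membrane collagen, was at -2.05 in 48 h replicate 4, with the other 48 h arrays from 0.32 to 0.88 (log2 relative to the array's 75th percentile); this is also the array with the lowest Mmp2, Mmp12, Mmp13, Mmp14 and Timp3. Il1b was at 3.33 in 10-day replicate 4, with the others from 3.64 to 3.76. Ctsk, a collagen-cutting cathepsin, was at 2.74 in 48 h replicate 3, with the others from -1.61 to -0.68; this is also the array with the highest Mmp9 and Mmp10. None of the 9 members tested had such an array. Mmp10 was left out of the tests as not well above background on the other arrays. In 48 h replicate 3 it was well above background at -5.26, with vehicle from -8.13 to -7.10.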

How the results depend on the processing

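No member was called under any of the 26 settings, and the smallest adjusted limma p of a member was 0.938. Over all genes, some settings called 1 gene each, none a member: 4930448H16Rik with no filter on dim probes, and BE945716, Dnaaf4 or A630052C17Rik without 1 array. Under each setting the median of the members differed from its main value by less than the SD between replicates. Small differences changed sign. At 48 h against vehicle, Mmp13 was 0.11 with slide as a block, 0.0026 in the authors' table and 0.037 with the median as the scale. Mmp12 was -0.010 with normexp and quantile normalization, -0.015 in the authors' table and -0.018 as the mean of its probes. Timp1 was 0.034 with the median as the scale. Without the 2 arrays that share a number, Mmp14 was 0.026, Mmp8 0.028 and Timp1 0.12, and at 10 days against vehicle Timp3 was 0.090. Mmp2 at 10 days was 0.012 with slide as a block and 0.014 with normexp. The cause of these was not tested.

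Leaving out 1 array at a time, the differences that changed sign ran at 48 h against vehicle from -0.039 to 0.12 (Mmp12), -0.078 to 0.33 (Mmp2), -0.12 to 0.092 (Timp1), -0.12 to 0.27 (Mmp9), -0.26 to 0.31 (Mmp13), -0.24 to 0.20 (Mmp14) and -0.47 to 0.38 (Timp3). At 10 days against vehicle they ran from -0.20 to 0.093 (Mmp14), -0.17 to 0.10 (Mmp2), -0.43 to 0.30 (Timp3), -0.22 to 0.020 (Mmp9) and -0.29 to 0.0084 (Mmp13). At 10 days against 48 h they ran from -0.29 to 0.16 (Mmp14), -0.55 to 0.51 (Timp3), -0.48 to 0.093 (Mmp13), -0.36 to 0.047 (Mmp2), -0.26 to 0.050 (Mmp8) and -0.36 to 0.023 (Mmp9). At 10 days against vehicle Timp1, Mmp3, Mmp8 and Mmp12 kept their sign under all 26 settings, though Mmp12 was 0.034 within slide 2.

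The 3 pairs of members that passed by r became 1 within slide 1, 0 within slide 2, 0 without the 2 farthest arrays and 0 without 48 h replicate 4, and stayed 3 in the authors' table. The 5 pairs of a member and a marker list became 0 within slide 1, 0 within slide 2, 2 without the 2 farthest arrays, 1 in the authors' table (Timp3 with the ductal and tumour epithelium markers) and 3 without 48 h replicate 4. Leaving out 48 h replicate 4 was chosen after seeing the data. No paired analysis was possible because the groups share fewer than 2 numbers in the labels: 1 ID number stands in the titles of both a vehicle and a 48 h sample, and no other is shared. The description of that vehicle sample gives another number than its title.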
